A study of Mus musculus with 12 samples.

Results

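The genes described here store, take up, export and sense iron. They are the 9 rows of the deposited expression table, of 29937 genes, whose gene name is Fth1, Ftl1, Tfrc, Slc40a1, Slc11a2, Ncoa4, Hmox1, Aco1 or Ireb2, and each name has 1 row. RNA-seq libraries, 12 in all, were made from poly(A) RNA of wild-type 4T1 cells, an adherent mouse mammary carcinoma line, in 4 groups of 3 libraries whose treatment labels read OAP2, Oxa, APAP and, for the group titled PBS, DMSO. The sources used here state neither doses nor times, and the sample labels name a cell line where the design text mentions a xenograft. The columns of the PBS group are headed CON, and were matched to it by inference, since no other group lacks a drug. Total counts ranged from 64071751 to 71500487 per library. Nothing in the labels says whether the libraries of a group came from separate cultures, so a p-value covers the spread among the sequenced libraries, which may be technical.

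Cells hold spare iron inside ferritin, a hollow protein shell built from heavy chains (Fth1), which oxidise iron, and light chains (Ftl1), which help it to settle as mineral. Iron enters bound to transferrin through the transferrin receptor (Tfrc), leaves the endosome through the divalent metal transporter (Slc11a2), and leaves the cell through ferroportin (Slc40a1), the known iron exporter of mammals. Ncoa4 encodes the receptor that delivers ferritin to lysosomes, and Hmox1 the haem oxygenase that frees iron from haem. The iron regulatory proteins encoded by Aco1 and Ireb2 bind a stem-loop in messenger RNA, the iron-responsive element. In iron-poor cells this binding blocks translation of ferritin and ferroportin messages, where the element lies in the 5′ UTR, and protects the Tfrc message, where it lies in the 3′ UTR. Ferritin genes, Hmox1 and Slc40a1 are also known targets of NRF2, the transcription factor of the oxidative stress response. Messenger RNA levels, which are what was measured, do not show the translational part of this control.

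The elements are shown because they tie the members to each other. A search of the GENCODE M21 transcripts (GRCm38) for an element in a UTR, on the transcript strand (a C, any 5 bases, then the loop CAGTGN whose last base is not G, with the 5 bases before the loop paired to the 5 after it and G-T pairs allowed), matched 4 of the 9 members at 7 sites. Of all 21866 protein-coding genes searched, 0.563% had such a match. The sites are at chr19:9982732-9982761 on the plus strand for Fth1, chr7:45459778-45459807 on the minus strand for Ftl1 and chr1:45925464-45925493 on the minus strand for Slc40a1, all in the 5′ UTR. The 4 of Tfrc lie in its 3′ UTR on the plus strand, at chr16:32631219-32631248, chr16:32631598-32631627, chr16:32631663-32631692 and chr16:32631710-32631739. Each is printed 5′ to 3′ as DNA with the hexaloop in capitals.
Fth1: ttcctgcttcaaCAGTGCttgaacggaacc
Ftl1: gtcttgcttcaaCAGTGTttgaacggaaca
Slc40a1: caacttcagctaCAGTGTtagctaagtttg
Tfrc site 1: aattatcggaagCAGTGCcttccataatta
Tfrc site 2: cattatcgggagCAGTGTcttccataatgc
Tfrc site 3: ctatatcggagaCAGTGAtctccatatgtt
Tfrc site 4: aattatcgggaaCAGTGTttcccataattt
The ferritin sites differ from each other at 4 of 30 bases. For Slc11a2, Ncoa4, Hmox1, Aco1 and Ireb2 these letters were not found in an annotated UTR, which says nothing more about them. The search asked for 5 unbroken pairs, so an element with an unpaired base among them would be missed. A gene without a match may therefore still carry an element.

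Genes with FPKM (sequenced fragments per unit of transcript length, scaled for library depth) of at least 1 in at least 3 libraries were tested, 12036 in all. This kept 8 members. Slc40a1 stayed below FPKM 1 in all 12 libraries. A gene was called at an adjusted p below 0.05 (edgeR quasi-likelihood test, Benjamini-Hochberg over the 12036 genes), changes are log2 fold changes ± SE, and levels are FPKM as mean ± SD (n = 3 per group).

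The markers of epithelial cells, among them Epcam and Krt8, were at FPKM 1 or more in all 12 libraries. Their sum was 1518 in PBS 2 and 1104 to 1352 elsewhere. PBS 2 stood apart from the other libraries. The sum of 11 red blood cell markers was FPKM 232 there, with Hbb-bs, a globin gene, at 89.7 and all 11 above 0, against 0.28 to 0.61 elsewhere, and 9 of the 11 were listed at 0 in both PBS 1 and PBS 3. The sum of 8 neutrophil markers was 67.1 in PBS 2 and 0 to 0.54 elsewhere. PBS 1 had the highest sum of 12 macrophage markers, 37.4 against 3.99 to 12.9 elsewhere, most of it Lyz2 (31.0). The fibroblast list summed to 2.56 in PBS 2, with all 7 markers above 0 but 0 at FPKM 1 or more, and to 0.71 to 1.79 elsewhere. The endothelial list summed to at most 0.09.

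**Figure D1:**
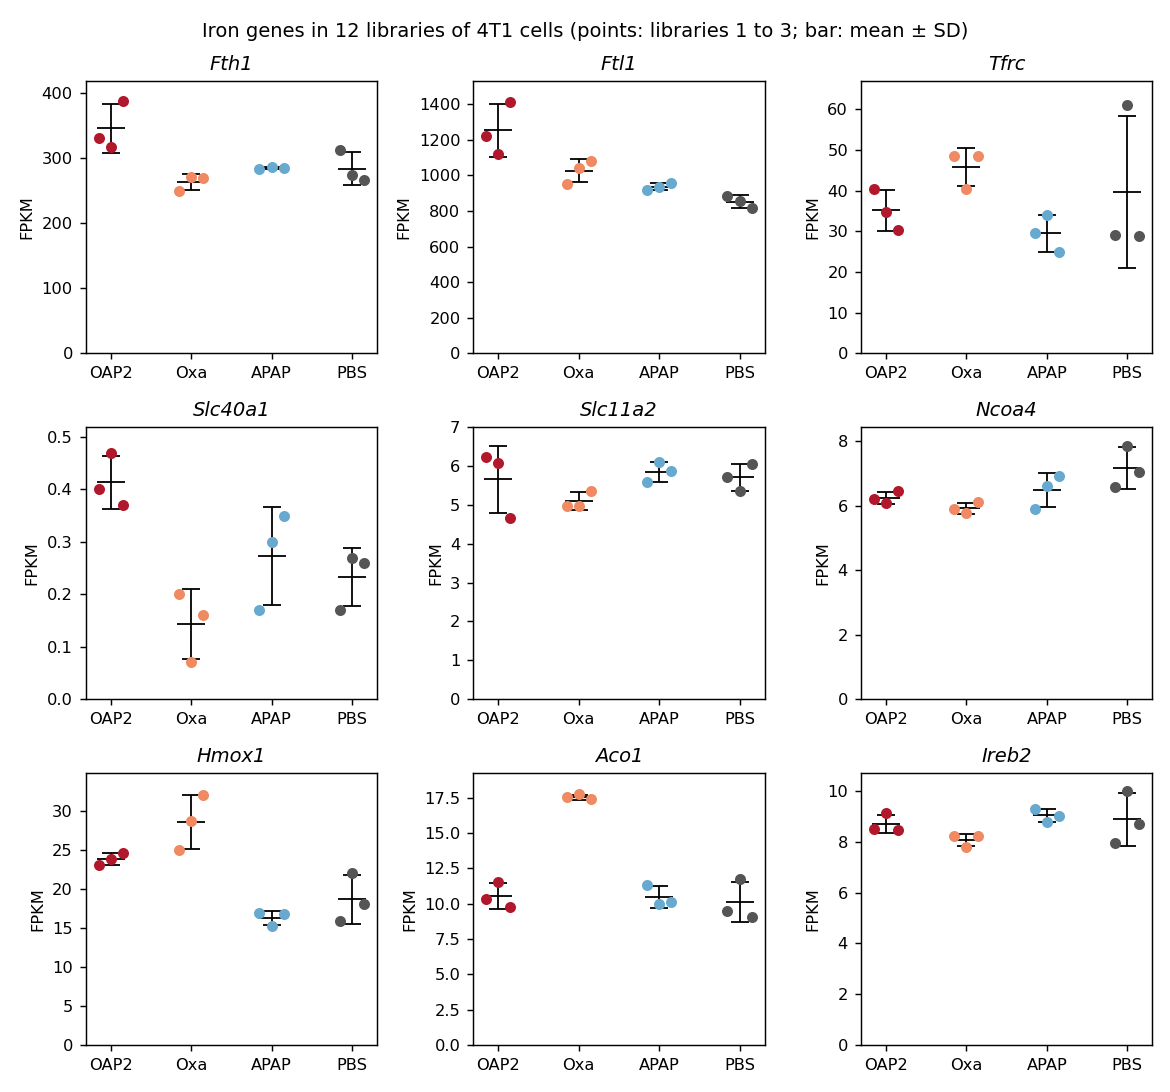
FPKM of the 9 iron genes in each library, by group (OAP2, Oxa, APAP, PBS), with the mean and SD of 3 libraries; each axis starts at 0. Ftl1 is highest in the 3 OAP2 libraries (1121 to 1415), Aco1 in the 3 Oxa libraries (17.4 to 17.7), and Tfrc in PBS 2 (61.2).

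Ferritin messages were the most abundant of the members, and the light chain was higher in OAP2 than in PBS. Ftl1 (chromosome 7, 45457944 to 45459884) stood at FPKM 1224, 1121 and 1415 in OAP2 1 to 3, at 955, 1043 and 1080 in Oxa 1 to 3, at 918, 934 and 958 in APAP 1 to 3, and at 887, 854 and 816 in PBS 1 to 3. All 3 OAP2 libraries lay above every library of the other groups, the Oxa and APAP libraries overlapped, and both lay above all of PBS. By mean over the 12 libraries (1017) it was number 26 of all genes. Against PBS, Ftl1 rose 1.48-fold in OAP2, with means of 1253 ± 149 in OAP2 and 852 ± 35.7 in PBS (0.57 ± 0.10, 95% interval 0.35 to 0.78, adjusted p = 0.00640). It was the 1 called member of 8 in that comparison, where 5.25% of all genes were called, 2.14% higher and 3.11% lower.

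The call for Ftl1 held without any 1 of the 6 libraries, at adjusted p of 0.00438 to 0.0284, and ended when only those 6 libraries were fitted (0.57, adjusted p = 0.138). In Oxa against PBS, Ftl1 was at 0.27 ± 0.10 (0.06 to 0.49, 0.0955), and in APAP against PBS at 0.18 ± 0.10 (-0.04 to 0.39, 0.638). Neither passed, nor did OAP2 against Oxa (0.29 ± 0.10, 0.08 to 0.51, 0.0698) or OAP2 against APAP (0.39 ± 0.10, 0.18 to 0.61, 0.0993). In OAP2 against Oxa, Ftl1 was called by DESeq2 (0.30, adjusted p = 0.0241), which called 18.7% of the genes it gave an adjusted p, and by edgeR without OAP2 2 (0.36, 0.0484). The 3 comparisons with PBS share those control libraries, so their values are given side by side only.

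A near-identical copy of Ftl1 makes its counts less certain. Ftl1-ps1, on chromosome 13, matched the longest Ftl1 transcript at 99.56% of 910 aligned bases and holds the iron-responsive stretch of Ftl1 letter for letter. Its row was at FPKM 16.3, 16.1 and 18.5 in OAP2, 13.7, 15.9 and 16.7 in Oxa, 13.1, 13.9 and 13.3 in APAP, and 13.4, 10.9 and 11.1 in PBS. Reads of the gene and of its copy cannot be told apart where the sequences are the same. With counts of Ftl1-ps1 and Ftl1-ps2 added to Ftl1 the change in OAP2 against PBS was the same to 2 decimals (0.57, adjusted p = 0.00640). That sum could hardly have moved it: Ftl1-ps1 held 1061 to 1982 counts per library, and Ftl1 85713 to 165582. Exons of Ftl1 also overlap a short RNA gene on its own strand and Gm10252 on the other strand, and whether counting used strand is not stated in the sources used here.

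Fth1 (chromosome 19, 9980598 to 9985092) was higher in OAP2 than in Oxa. It stood at FPKM 332, 317 and 388 in OAP2 1 to 3, at 250, 271 and 269 in Oxa, at 284, 287 and 284 in APAP, and at 313, 273 and 266 in PBS. The OAP2 libraries again lay above all 9 others, but the lowest of them, 317, was close to PBS 1, and the other 3 groups lay near each other. Fth1 averaged 345 ± 37.4 in OAP2 and 263 ± 11.8 in Oxa (0.40 ± 0.10, 0.17 to 0.62, adjusted p = 0.0257), and was called. That call ended without OAP2 3 (0.30, adjusted p = 0.0546), without each of the 3 Oxa libraries in turn (up to 0.0987) and with no filter on low values (0.0825). Against PBS it was at 0.29 ± 0.10 in OAP2 (0.07 to 0.52, 0.123), -0.10 ± 0.10 in Oxa (-0.33 to 0.12, 0.573) and 0.04 ± 0.10 in APAP (-0.18 to 0.27, 0.920), none called. OAP2 against APAP gave 0.25 ± 0.10 (0.02 to 0.48, 0.271).

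The proportion of light to heavy chain message fell in separate ranges in the 4 groups, though a test of 3 against 3 libraries was too small to call it. FPKM is a level per length, so the ratio of Ftl1 to Fth1 can be read within a library: it was 3.69, 3.54 and 3.65 in OAP2, 3.82, 3.85 and 4.01 in Oxa, 3.23, 3.26 and 3.37 in APAP, and 2.84, 3.13 and 3.07 in PBS. The 4 groups did not overlap in this ratio, and they stood in the order Oxa, OAP2, APAP, PBS. How often the ratios of other pairs of genes separate the groups this way was not counted. Each of the 5 comparisons gave an exact permutation p of 0.1 (2-sided), the smallest that 3 against 3 libraries allow, and 0.143 after adjustment over the 10 ratio tests. In Oxa the high ratio came with Fth1 at 263 ± 11.8 and Ftl1 at 1026 ± 64.3, and in OAP2 with both chains at their highest. Together the chains made up 0.578%, 0.573% and 0.670% of all FPKM in OAP2, 0.451%, 0.500% and 0.512% in Oxa, 0.481%, 0.488% and 0.475% in APAP, and 0.462%, 0.425% and 0.407% in PBS.

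**Figure D2:**
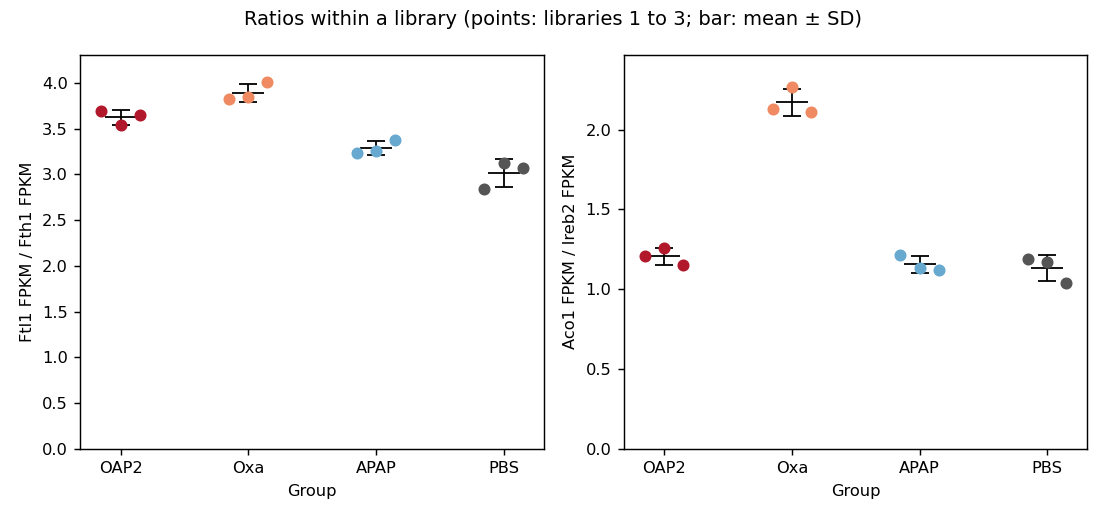
Ratio of Ftl1 to Fth1 FPKM (left) and of Aco1 to Ireb2 FPKM (right) in each library, by group, with the mean and SD of 3 libraries; axes start at 0. The ferritin ratio is 3.82 to 4.01 in Oxa and 2.84 to 3.13 in PBS, and the Aco1 to Ireb2 ratio is above 2 in the 3 Oxa libraries alone.

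Of the genes that release iron from haem or ferritin, Hmox1 rose in Oxa. Hmox1 (chromosome 8, 75093621 to 75100589), the inducible haem oxygenase, stood at FPKM 23.0, 23.9 and 24.6 in OAP2 1 to 3, at 25.0, 28.7 and 32.03 in Oxa, at 16.9, 15.3 and 16.8 in APAP, and at 15.9, 22.0 and 18.1 in PBS. All 6 libraries of Oxa and OAP2 lay above all 6 of APAP and PBS, and Oxa lay above OAP2. Against PBS it rose 1.54-fold in Oxa, with means of 28.6 ± 3.52 in Oxa and 18.7 ± 3.10 in PBS (0.62 ± 0.12, 0.36 to 0.88, adjusted p = 0.00815). Hmox1 and Aco1 were the 2 called members of 8 in Oxa against PBS, where 10.1% of all genes were called, 5.35% higher and 4.76% lower. The call held without any 1 library (up to 0.0437) and ended when only the 6 libraries compared were fitted (0.62, 0.0509).

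Hmox1 in OAP2 was also above PBS in every library but did not pass, at 0.37 ± 0.12 (0.11 to 0.63, adjusted p = 0.0985). PBS 2, the library with the red blood cell transcripts, had the highest Hmox1 of its group. Without it the value was 0.50 and was called (adjusted p = 0.00573), in a fit that called 16.4% of all genes. DESeq2 with all libraries also called it (0.37, 0.0482), with 10.7% of genes called. PBS 1, which had the highest macrophage sum, had the lowest Hmox1 of its group, and the part of other cells in these levels was not tested. OAP2 against APAP gave 0.52 ± 0.12 (0.26 to 0.78, 0.0846), OAP2 against Oxa -0.26 ± 0.12 (-0.52 to 0.00, 0.184), and APAP against PBS -0.15 ± 0.12 (-0.41 to 0.11, 0.728), none called.

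Ncoa4 (chromosome 14, 32159865 to 32179855), the receptor for ferritin breakdown, was called in no comparison by edgeR and in 1 by DESeq2. It stood at FPKM 6.22, 6.09 and 6.45 in OAP2, 5.89, 5.77 and 6.12 in Oxa, 5.91, 6.63 and 6.92 in APAP, and 6.59, 7.87 and 7.05 in PBS. All OAP2 and Oxa libraries lay below all PBS libraries, while APAP overlapped every group. The values against PBS were -0.18 ± 0.09 in OAP2 (-0.37 to 0.01, adjusted p = 0.259), -0.27 ± 0.09 in Oxa (-0.46 to -0.08, 0.0696) and -0.10 ± 0.09 in APAP (-0.29 to 0.09, 0.750), none called. DESeq2 called it lower in Oxa against PBS (-0.27, 0.0336), where it called 17.8% of genes. PBS 2 had the highest Ncoa4 of the 12 libraries. Without it the edgeR values against PBS were nearer 0, at -0.11 in OAP2, -0.19 in Oxa and -0.03 in APAP. None was called, in fits that called 16.4%, 25.5% and 0.0249% of all genes. Ncoa4 was 0.08 ± 0.09 in OAP2 against Oxa (0.586) and -0.08 ± 0.09 in OAP2 against APAP (0.719).

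For Tfrc, the uptake receptor, no comparison passed with all libraries, and its level in PBS rests on PBS 2. Tfrc (chromosome 16, 32608920 to 32632794) stood at FPKM 40.3, 34.8 and 30.4 in OAP2 1 to 3, at 48.6, 40.4 and 48.5 in Oxa, at 29.7, 34.0 and 25.0 in APAP, and at 29.1, 61.2 and 28.8 in PBS. PBS 2 was the highest of the 12 libraries, and PBS 1 and PBS 3 lay below every OAP2 and Oxa library. Tfrc is abundant in maturing red blood cells, and PBS 2 held all 11 of their listed markers above 0, but only 4 at FPKM 1 or more. In bulk RNA, more cells of a type and more RNA per cell cannot be told apart, and the part of the red blood cell transcripts in this level was not tested.

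With all libraries, Tfrc was at -0.16 ± 0.24 in OAP2 against PBS (-0.69 to 0.36, adjusted p = 0.775), 0.21 ± 0.24 in Oxa against PBS (-0.31 to 0.73, 0.618) and -0.38 ± 0.24 in APAP against PBS (-0.91 to 0.14, 0.668). Without PBS 2 these became 0.29 (0.181), 0.67 (0.00430) and 0.07 (0.913). Tfrc in Oxa was then called higher, in a fit that called 25.5% of all genes, and the values for OAP2 and APAP turned sign without being called, in fits that called 16.4% and 0.0249%. The levels compared in the other comparisons leave out PBS 2, but it still entered the spread behind their errors and p-values. Tfrc was at -0.38 ± 0.24 in OAP2 against Oxa (-0.90 to 0.15, 0.341), where the groups did not overlap, and at 0.22 ± 0.24 in OAP2 against APAP (-0.30 to 0.74, 0.715). In fits of only the 6 libraries compared, which hold no PBS library, the values were -0.35 (0.0651) and 0.23 (0.405), neither called.

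**Figure D3:**
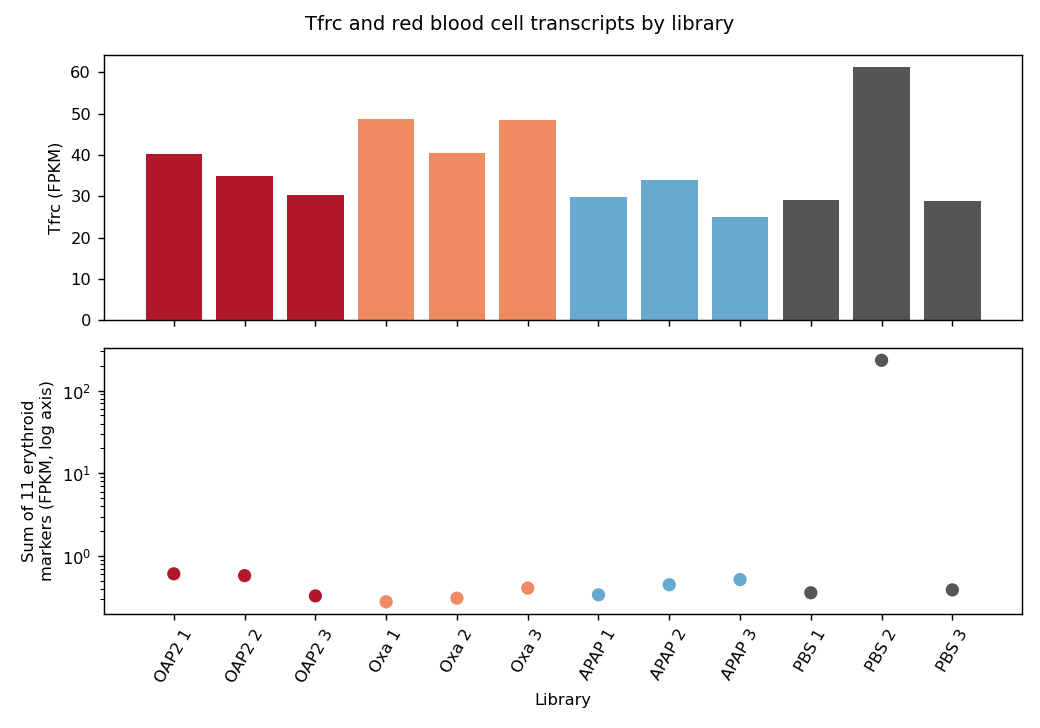
Tfrc FPKM (upper panel, bars from 0) and the summed FPKM of 11 red blood cell markers (lower panel, log axis) in each of the 12 libraries, coloured by group. PBS 2 is highest in both, with Tfrc at 61.2 and the marker sum at 232, while the other 11 libraries have marker sums of 0.28 to 0.61.

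Slc11a2 (chromosome 15, 100387898 to 100424092), which carries iron out of endosomes, was at FPKM 6.23, 6.08 and 4.67 in OAP2, 4.97, 4.96 and 5.36 in Oxa, 5.58, 6.10 and 5.88 in APAP, and 5.71, 5.37 and 6.05 in PBS. The Oxa libraries lay just below the PBS libraries, and OAP2 held both the highest and the lowest of the 12. The values against PBS were 0.00 ± 0.11 in OAP2 (-0.24 to 0.24, adjusted p = 1.00), -0.16 ± 0.11 in Oxa (-0.39 to 0.08, 0.396) and 0.08 ± 0.11 in APAP (-0.16 to 0.31, 0.862). OAP2 against Oxa (0.16 ± 0.11, 0.390) and OAP2 against APAP (-0.08 ± 0.11, 0.795) did not pass. Its exons overlap Gm5475 on the other strand.

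Slc40a1 (chromosome 1, 45908068 to 45926523), the exporter ferroportin, was by far the least abundant of the members. It stood at FPKM 0.40, 0.47 and 0.37 in OAP2 (306, 352 and 288 counts), 0.20, 0.07 and 0.16 in Oxa (144, 51 and 117 counts), 0.17, 0.30 and 0.35 in APAP (126, 224 and 257 counts), and 0.17, 0.27 and 0.26 in PBS (129, 198 and 187 counts). The OAP2 libraries were above the other 9, and Oxa 2 was the lowest. A fit of 28844 genes with no filter on low values gave 1.52 ± 0.37 in OAP2 against Oxa (0.72 to 2.31, adjusted p = 0.0441), where 3.56% of all genes were called. That call ended without each of the 6 libraries in turn, at adjusted p of 0.0568 to 0.127, an alternative chosen after the data were seen. In the same unfiltered fit it was at 0.83 ± 0.36 in OAP2 (0.418), -0.69 ± 0.36 in Oxa (0.429) and 0.26 ± 0.36 in APAP (0.908), each against PBS, and at 0.57 ± 0.36 in OAP2 against APAP (0.654). None of these was called, where that fit called 1.25%, 2.43% and 0% of all genes in OAP2, Oxa and APAP against PBS, and 0.0139% in OAP2 against APAP. PBS 1, with the highest macrophage marker sum, was the lowest PBS library for Slc40a1, and the part of macrophage RNA in its level was not tested.

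Of the iron regulatory proteins, Aco1 rose in Oxa while Ireb2 did not pass in any comparison. Aco1 (chromosome 4, 40143081 to 40198338) encodes a protein that is a cytosolic aconitase with its iron-sulfur cluster and an RNA-binding regulator without it. It stood at FPKM 10.3, 11.5 and 9.73 in OAP2 1 to 3, at 17.5, 17.7 and 17.4 in Oxa, at 11.3, 9.98 and 10.1 in APAP, and at 9.48, 11.7 and 9.08 in PBS. The Oxa libraries were close to each other and lay far above the other 9, whose groups overlapped.

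Against PBS, Aco1 rose 1.75-fold in Oxa, averaging 17.5 ± 0.176 in Oxa and 10.1 ± 1.42 in PBS (0.80 ± 0.11, 0.56 to 1.05, adjusted p = 0.00235). In OAP2 against Oxa it was lower, at 10.5 ± 0.910 in OAP2 and 17.5 ± 0.176 in Oxa (-0.73 ± 0.11, -0.98 to -0.49, 0.00153). Both calls held without any 1 library, the rise at 0.72 to 0.93 with adjusted p up to 0.0149 and the fall at -0.81 to -0.68 with adjusted p up to 0.0117. Aco1 and Fth1 were the 2 called members of 8 in OAP2 against Oxa, 1 in each direction, where 12.9% of all genes were called, 6.02% higher and 6.91% lower. Against PBS, Aco1 was at 0.07 ± 0.11 in OAP2 (-0.17 to 0.31, 0.798) and 0.09 ± 0.11 in APAP (-0.15 to 0.34, 0.833), and it was at -0.02 ± 0.11 in OAP2 against APAP (0.952).

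Ireb2 (chromosome 9, 54863789 to 54912530), whose protein lacks the cluster and is broken down when iron is plentiful, was at FPKM 8.53, 9.13 and 8.46 in OAP2, 8.23, 7.81 and 8.22 in Oxa, 9.32, 8.80 and 9.03 in APAP, and 7.96, 10.02 and 8.73 in PBS. It varied least of the 9 members, 1.28-fold between its lowest and highest library. The values against PBS were -0.02 ± 0.09 in OAP2 (-0.21 to 0.18, adjusted p = 0.948), -0.13 ± 0.09 in Oxa (-0.33 to 0.07, 0.388) and 0.06 ± 0.09 in APAP (-0.13 to 0.26, 0.861). OAP2 against Oxa was at 0.11 ± 0.09 (0.458) and OAP2 against APAP at -0.08 ± 0.09 (0.712). The ratio of Aco1 to Ireb2 was 1.21, 1.26 and 1.15 in OAP2, 2.13, 2.27 and 2.11 in Oxa, 1.22, 1.13 and 1.12 in APAP, and 1.19, 1.17 and 1.04 in PBS. The Oxa libraries stood apart (exact permutation p = 0.1 against PBS and for OAP2 against Oxa, the smallest possible, 0.143 adjusted), and the other groups overlapped.

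**Figure D4:**
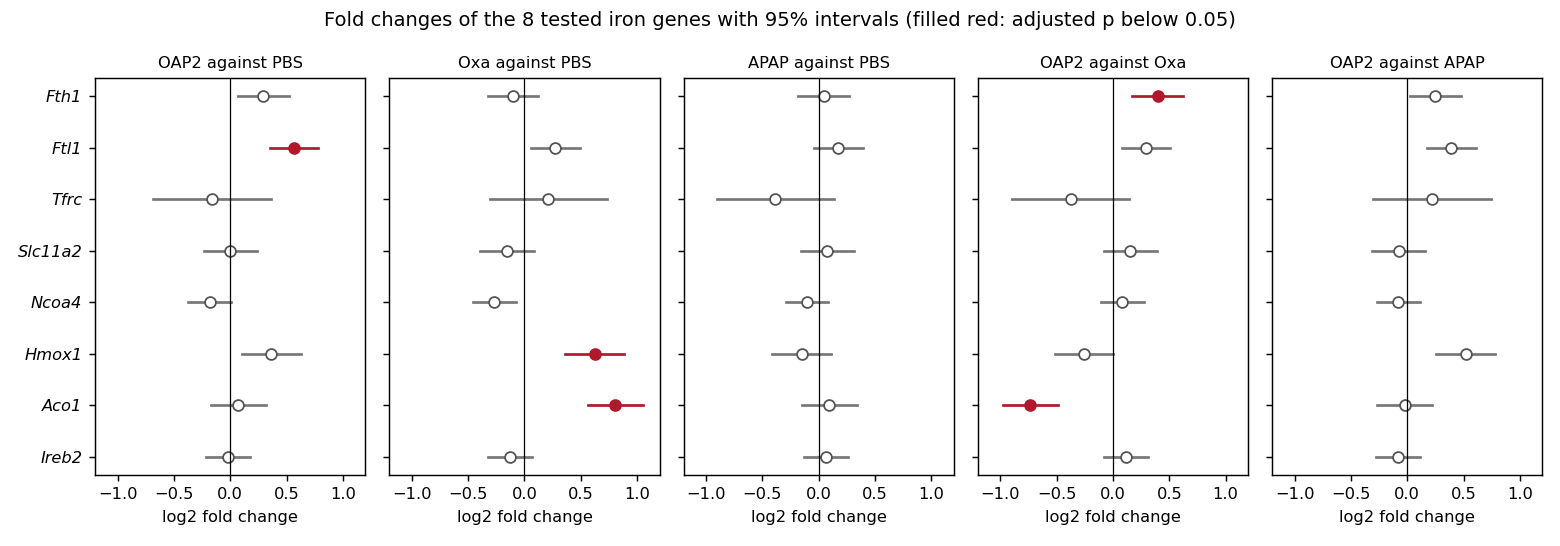
Log2 fold changes of the 8 tested members in the 5 comparisons, with 95% intervals from the edgeR fit; filled red points have an adjusted p below 0.05. The called values are Ftl1 in OAP2 against PBS (0.57), Hmox1 (0.62) and Aco1 (0.80) in Oxa against PBS, and Fth1 (0.40) and Aco1 (-0.73) in OAP2 against Oxa.

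Most values of the 8 tested members did not pass, in any of the 5 comparisons. In OAP2 against PBS, 1 rose, 0 fell and 7 did not pass, with a median of 0.04 beside 0.00 over all genes tested. In Oxa against PBS, 2 rose, 0 fell and 6 did not pass (median 0.05, all genes -0.01). APAP against PBS called 0 of the 8 by edgeR (median 0.05), 0 at an unadjusted p below 0.05 and 0 by DESeq2. Of all genes, edgeR called 0.0166%, 0% higher and 0.0166% lower, 9.16% were at that unadjusted p, and DESeq2 called 0.822%. OAP2 against APAP called 0 of 8 (median 0.10) beside 0.474% of all genes (0.274% higher, 0.199% lower), with 3 members at an unadjusted p below 0.05 beside 15.2% of all genes, and DESeq2 called 2 of them, Ftl1 (0.40, adjusted p = 0.00864) and Hmox1 (0.52, 0.00644), beside 4.47% of genes. Groups did not overlap for 4 members in OAP2 against PBS (18.7% of all genes), 5 in Oxa against PBS (29.1%), 1 in APAP against PBS (15.9%), 6 in OAP2 against Oxa (36.1%) and 3 in OAP2 against APAP (25.7%).

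Around the members, 80 further genes of iron handling in 5 lists were read from the same fit, of which 60 passed the filter. In OAP2 against PBS 2 of the 60 rose and 0 fell, beside 2.14% of all genes higher and 3.11% lower. Both are from the list of uptake, reduction and carriers: Lcn2, which captures iron-carrying siderophores, and Steap1, of the STEAP metalloreductase family. Steap1 stood at FPKM 84.9, 77.1 and 80.7 in OAP2, 50.5, 48.8 and 46.6 in Oxa, 52.5, 60.4 and 49.2 in APAP, and 60.1, 56.3 and 53.9 in PBS. The OAP2 libraries lay above the other 9. Steap1 was higher in OAP2 against PBS (0.52 ± 0.10, adjusted p = 0.0101), against Oxa (0.74 ± 0.10, 0.000716) and against APAP (0.55 ± 0.10, 0.0299). Lcn2 was at 22.3, 19.2 and 10.7 in OAP2, 2.27, 1.71 and 3.28 in Oxa, 3.19, 2.43 and 3.76 in APAP, and 2.45, 4.12 and 1.00 in PBS, and was called in the same 3 comparisons (2.78, 2.85 and 2.45). For both genes the call against APAP ended without each library but OAP2 3 in turn, with adjusted p up to 0.206, and the call against PBS ended when only the 6 libraries compared were fitted (0.113 and 0.0659).

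Oxa against PBS called 1 of the 60, beside 10.1% of all genes. It was Ciao1, a part of the cytosolic iron-sulfur assembly machinery, at 6.07, 6.69 and 6.59 in Oxa and 3.28, 5.12 and 3.29 in PBS (0.73 ± 0.17, adjusted p = 0.0175). The call ended without 4 of the 6 libraries in turn (up to 0.0788) and was kept without PBS 2, the highest of its group (0.98, 0.000304). OAP2 against Oxa called 4 of the 60, beside 12.9% of all genes, and all were higher in OAP2: Lcn2, Steap1, Flvcr1, described as a haem exporter and a choline transporter, and Nfs1, the cysteine desulfurase that supplies sulfur for iron-sulfur clusters. Flvcr1 averaged 20.4 ± 1.67 in OAP2 and 13.6 ± 0.896 in Oxa (0.59 ± 0.14, 0.0152, lost without OAP2 1 or Oxa 2), and Nfs1 12.5 ± 0.524 in OAP2 and 10.2 ± 0.949 in Oxa (0.29 ± 0.09, 0.04998, lost in most alternatives). APAP against PBS called 0 of the 60 by edgeR, beside 0.0166% of all genes. Of the 60, 4 were at an unadjusted p below 0.05, beside 9.16% of all genes. The smallest p was for Herc2, a ubiquitin ligase that targets NCOA4 (0.30 ± 0.12, adjusted p = 0.478). The medians of the 60 lay between -0.05 and 0.08 in the 5 comparisons, beside -0.01 to 0.00 over all genes.

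By likeness of log2 CPM over the 12 libraries, which share the 4 groups and their differences, the genes closest to each called member of 9814 named protein-coding candidates were as follows, as a description. For Ftl1 they were Sqstm1 (Pearson's r 0.95), Nupr1 (0.95) and its own copy Ftl1-ps1 (0.93), and for Fth1 they were Ptms (0.94), Ubxn4 (0.93) and Chmp2a (0.93). For Hmox1 they were Dlgap5 (0.98), Tubg1 (0.96) and Rfxap (0.96), and for Aco1 they were Plcg2 (0.98), Copg1 (0.97) and Parp1 (0.97). Among the members, Ftl1 and Fth1 had an r of 0.75 with each other, and Hmox1 and Aco1 one of 0.75.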

How the data were processed

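For every gene in each library, the authors' deposited table holds an FPKM value and an estimated count, per the file headers. The estimated counts, as deposited by the authors, are whole numbers not scaled between libraries, so rounding changed none of them. The deposited FPKM values, scaled by the authors to length and depth, were used for levels. Build mm9 and the tools StringTie 2.1.6, HISAT2 2.2.1, cutadapt 1.9, edgeR and DESeq2 are listed, with no roles, per the submitters' processing notes. Positions are the deposited ones: 7 of the 9 members have the same coordinates in GRCm38 (GENCODE M21), and Fth1 and Slc11a2 were found there by gene name.

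The main test was edgeR 4.0.16 in R 4.3.3 (glmQLFit, glmQLFTest, TMM scaling, 2-sided) with 1 mean for each group and all 12 libraries in the fit. SE was approximated by |log2 fold change|/sqrt(F); for log2 CPM the prior count was 2. The common biological coefficient of variation came to 18.1%, and the procedure was checked on simulated counts. These gave every library the same spread per gene, so the check does not cover a library that stands apart, as PBS 2 does. limma 3.58.1 and DESeq2 1.42.0 served as alternatives. Replicate libraries differed by more than sampling noise (chi-square per degree of freedom of 30.4 or more over 12 pairs).

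The members and lists were chosen with earlier results of these data known. Named are all members, per comparison up to 4 called genes of the further lists by size of change or else the gene with the smallest p, the 3 protein-coding genes most alike to each called member, and ferritin pseudogenes.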

Additional observations from a re-analysis of the deposited data

How the results depend on the processing

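Alternatives were other size factors (RLE), DESeq2, no filter on low values, a fit of only the 6 libraries compared, limma on log2(FPKM + 1) and on log2(FPKM + 0.1), a block for the replicate number, and each library left out in turn. The calls of Ftl1 in OAP2 against PBS, of Hmox1 and Aco1 in Oxa against PBS and of Aco1 in OAP2 against Oxa kept their direction in all of these, and the calls of Ftl1 and Hmox1 ended only in the fits of 6 libraries. The cause of the changes below was not tested.

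Members called were 2 by DESeq2 and 0 with only 6 libraries in OAP2 against PBS, 1 with only 6 libraries in Oxa against PBS, and 2 by DESeq2 and 1 with only 6 libraries in OAP2 against APAP. With single libraries left out they were 1 to 2 in OAP2 against PBS, 2 to 3 in Oxa against PBS, 0 in both comparisons with APAP, and 1 to 3 in OAP2 against Oxa. The replicate numbers did not pair the libraries: deviations from the group means correlated at -0.15 to 0.16 over the 18 pairs with the same number. The replicate block left the number of members called in each comparison unchanged. All genes called with that block are given below for OAP2 against APAP only. All genes called in OAP2 against PBS (632) became 1267 by DESeq2, 360 unfiltered, 38 with 6 libraries and 252 to 1976 without single libraries. In Oxa against PBS (1217) they became 2020, 701, 523 and 477 to 3066, and in APAP against PBS (2) they became 97, 0, 0 and 0 to 3. In OAP2 against Oxa (1557) they were 2161 by DESeq2, 1026 unfiltered and 688 to 1501 without single libraries. In OAP2 against APAP (57) they became 506 by DESeq2, 4 unfiltered, 286 with 6 libraries, 30 with the replicate block and 0 to 125 without single libraries.

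Some values turned sign without a call, most of them near 0. Tfrc against PBS was not near 0 with all libraries (-0.16 in OAP2, -0.38 in APAP) and turned sign only without PBS 2. Slc11a2 in OAP2 against PBS was -0.0033 unfiltered, -0.02 by limma with either pseudocount (-0.018 and -0.022), -0.0049 with the replicate block, and -0.066 to 0.12 without single libraries. Aco1 in OAP2 against APAP was 0.0041 and 0.0044 by limma, and -0.10 to 0.044 without single libraries. Without single libraries, in OAP2 against PBS Tfrc ranged from -0.36 to 0.29, Aco1 from -0.016 to 0.19 and Ireb2 from -0.066 to 0.078, in APAP against PBS Fth1 from -0.019 to 0.13, Tfrc from -0.58 to 0.074 and Ireb2 from -0.0022 to 0.16, and Slc11a2 in OAP2 against APAP from -0.14 to 0.043. Copies were summed by names beginning Ftl1-ps or Fth1-ps; the heavy chain copies, Fth-ps2 (116 counts over all libraries) and Fth-ps3 (8 counts), do not begin so and were not added to Fth1. At these depths the members other than Slc40a1 had at least 2211 counts per library, so the spread between libraries and not counting limits them.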

Other observations

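Other ferritin copies were read as values only. Ftl2-ps was at FPKM 6.60 to 13.4 over the 12 libraries, and Ftl1-ps2, Fth-ps2 and Fth-ps3 stayed at or below 0.50.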
